A study of Mus musculus with 8 samples.

Results

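Globose basal cells are the dividing stem and progenitor cells at the base of the olfactory epithelium. The results here concern 10 genes known for marking or regulating these cells, which were looked up by symbol among the 25913 genes of the deposited count table: Kit, Cxcr4, Lgr5, Sox2, Sox4, Sox11, Ezh2, Rcor2, Mybl1 and Cdkn1c. All 10 were present and passed the filter on low counts. The tissue was olfactory epithelium of C57BL/6J mice, 40 weeks old, and its poly(A) RNA was sequenced with strand kept, in paired reads of 100 bases. The study compared a knockout of Igf1r, the receptor of insulin-like growth factor 1, in olfactory sensory neurons with controls, in 4 libraries per group. The labels disagree on which group is which. Libraries titled OMP_IGF1R (replicates 11, 12, 17 and 18) have OMPflfl (Ctrl) in the genotype field, and libraries titled IGF1R_flfl (replicates 1, 2, 3 and 13) have OMPIGF1 (KO). The groups are named here by title, each fold change is of OMP_IGF1R over IGF1R_flfl libraries, and which genotype it favours rests on which of the labels is correct. The names point to Omp, a gene of mature olfactory sensory neurons, but the labels used here do not describe the Cre allele, and no source used here says whether a library is 1 mouse or a pool. The p-values therefore measure the spread between these libraries, which may be technical.

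Globose basal cells divide to give committed neuronal precursors, which leave the cell cycle, become immature neurons and then mature sensory neurons. They keep up neuron replacement throughout life, while horizontal basal cells lie beneath them as a reserve. Of the genes described here, Kit, Cxcr4 and Lgr5 encode cell surface receptors, Sox2, Sox4 and Sox11 encode transcription factors with a high-mobility-group DNA-binding domain, Ezh2 and Rcor2 encode chromatin regulators, and Mybl1 and Cdkn1c encode regulators of gene expression and division in cycling cells. Several are also known from other cells: Sox2, for example, from sustentacular and horizontal basal cells, and Kit from mast cells and melanocytes.

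Total counts were 18802471 to 25585192 in the OMP_IGF1R libraries and 23176815 to 27793375 in the IGF1R_flfl libraries, and the 10 genes had 176 to 2870 reads in a library. Igf1r stood at 34.5 to 49.6 CPM (counts scaled to a common library size, with trimmed-mean factors) in OMP_IGF1R libraries and at 55.5 to 72.9 CPM in IGF1R_flfl libraries. Omp stood at 1708 to 2185 CPM in OMP_IGF1R libraries, against 4470 to 6734 CPM in IGF1R_flfl libraries. Igf1r and Omp were thus both lower where the title, but not the genotype field, names the knockout. A pair of libraries stood apart in genes of neighbouring tissue: skeletal muscle markers summed to 623 CPM in OMP_IGF1R 17 and to at most 6.94 CPM elsewhere, and olfactory bulb and oligodendrocyte markers summed to 2354 CPM in IGF1R_flfl 2 and to at most 496 CPM elsewhere.

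Most of the progenitor genes were higher in the libraries titled OMP_IGF1R. At an edgeR adjusted p under 0.05, 8 of the 10 genes rose and 0 fell, with log2 fold changes of 0.33 to 1.17, whereas Lgr5 and Sox2 did not pass the test. Among all 17381 tested genes 2.83% rose and 5.37% fell. The median log2 fold change was 0.57 over the 10 genes and -0.012 over all tested genes. For 7 of the 10 genes every OMP_IGF1R library lay above every IGF1R_flfl library, as for 6.57% of all tested genes, and for 0 of the 10 the reverse held, as for 10.3% of all tested genes. The 10 genes were named with results of these data known, so the count describes them and is not independent evidence. In a tissue sample, more cells of a type and more RNA per cell cannot be told apart.

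The number of genes that rose was 6 without OMP_IGF1R 11, 12 or 18 or without IGF1R_flfl 3, 7 without IGF1R_flfl 1, 2 or 13, and 8 without OMP_IGF1R 17. Without the muscle-rich and bulb-rich libraries together it was 8. Kit and Sox4 were the genes whose calls depended on a library, as given below, while Cxcr4, Ezh2, Sox11, Mybl1, Cdkn1c and Rcor2 passed the test in each of the 17 alternative fits. Over all genes, 1425 were called in either direction, and 724, 613 and 569 without OMP_IGF1R 11, 12 and 18 and 841 and 886 without IGF1R_flfl 1 and 3. Of the 1425 calls 34.5% were higher, against 58.8% of the calls when libraries were scaled by raw totals. The count among the 10 genes was 8 under that scaling as well.

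**Figure D1:**
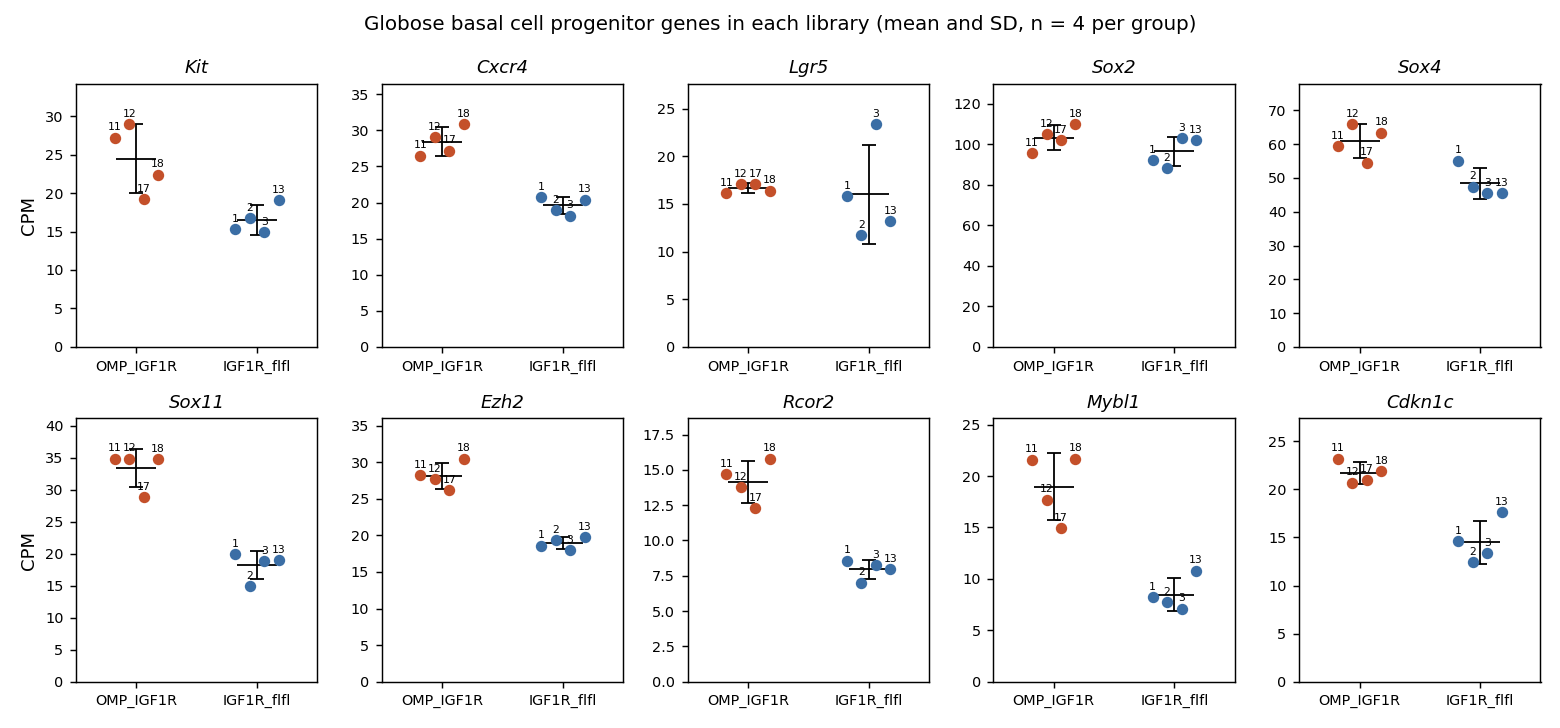
CPM (y axes, from 0) of the 10 genes in the 4 OMP_IGF1R libraries (left of each panel) and the 4 IGF1R_flfl libraries (right), with replicate numbers beside the points and bars for the mean and SD. Points of the groups stand apart for 7 genes and overlap for Sox4, Sox2 and Lgr5.

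Among the receptors, Kit and Cxcr4 rose and Lgr5 did not pass the test. Kit (ENSMUSG00000005672, GRCm38 chromosome 5, 75574916 to 75656722), the receptor tyrosine kinase for stem cell factor, stood at 27.2, 29, 19.2 and 22.4 CPM in OMP_IGF1R 11, 12, 17 and 18, against 15.3, 16.7, 14.9 and 19.1 CPM in IGF1R_flfl 1, 2, 3 and 13. Means were 24.5 ± 4.45 CPM in OMP_IGF1R and 16.5 ± 1.88 CPM in IGF1R_flfl libraries (SD, n = 4 each). On the log2 scale the difference was 0.57 ± 0.135 (SE; edgeR adjusted p = 0.0333). The groups were separated by a narrow gap, with OMP_IGF1R 17 just above IGF1R_flfl 13. Its call was lost without OMP_IGF1R 11, 12 or 18 (edgeR adjusted p = 0.0931, 0.0992 and 0.0682) and without IGF1R_flfl 1 or 3 (edgeR adjusted p = 0.0841 and 0.0818), with log2 fold changes of 0.48 to 0.68 over the 8 fits that left out a library.

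Cxcr4 (ENSMUSG00000045382, chromosome 1, 128588199 to 128592293), the receptor of the chemokine Cxcl12, stood at 26.5, 29.1, 27.2 and 30.9 CPM in OMP_IGF1R 11, 12, 17 and 18, against 20.8, 19, 18.2 and 20.4 CPM in IGF1R_flfl 1, 2, 3 and 13. Means were 28.4 ± 1.98 CPM in OMP_IGF1R and 19.6 ± 1.22 CPM in IGF1R_flfl libraries (SD, n = 4 each). The fold change in log2 was 0.54 ± 0.0723 (SE; edgeR adjusted p = 0.00498). All 4 OMP_IGF1R libraries lay above all 4 IGF1R_flfl libraries, and the spread within each group was small. Lgr5 (ENSMUSG00000020140, chromosome 10, 115450311 to 115587780), a receptor of R-spondins known as a stem cell marker in several epithelia, stood at 16.1, 17.1, 17.1 and 16.4 CPM in OMP_IGF1R 11, 12, 17 and 18 and at 15.8, 11.7, 23.4 and 13.2 CPM in IGF1R_flfl 1, 2, 3 and 13. The OMP_IGF1R libraries were close together, with a coefficient of variation of 3.04%, while the IGF1R_flfl libraries varied by 32.4% and lay on both sides of them. The difference of 0.06 ± 0.188 in log2 (SE; edgeR adjusted p = 0.89) was smaller than its error, and it was -0.05 without IGF1R_flfl 2, -0.01 without IGF1R_flfl 13 and 0.305 without IGF1R_flfl 3. Lgr5 shares bases with A930009A15Rik, which had at most 4 reads in any library.

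The Sox genes differed among themselves in size of change. Sox11 and Sox4 belong to one subgroup of the family (SoxC), known from committed neuronal precursors and immature neurons, and Sox2 to another (SoxB1), known from stem cells. Their promoters are shown because Sox11 and Sox4 rose and Sox2 did not pass the test: the 250 bases before the RefSeq start on GRCm38.p6, 5′ to 3′ in the gene's direction, at chr12:27342719-27342968, minus strand for Sox11, chr13:28953700-28953949, minus strand for Sox4 and chr3:34649745-34649994, plus strand for Sox2. Capitals mark matches to the E-box CAGCTG, the cell cycle element TTTGAA and CCAAT, on either strand.
Sox11: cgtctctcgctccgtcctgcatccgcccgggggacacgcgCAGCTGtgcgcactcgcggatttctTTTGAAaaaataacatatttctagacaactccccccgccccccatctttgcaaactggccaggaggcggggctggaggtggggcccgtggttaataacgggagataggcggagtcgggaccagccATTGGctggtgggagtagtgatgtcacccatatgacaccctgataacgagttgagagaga
Sox4: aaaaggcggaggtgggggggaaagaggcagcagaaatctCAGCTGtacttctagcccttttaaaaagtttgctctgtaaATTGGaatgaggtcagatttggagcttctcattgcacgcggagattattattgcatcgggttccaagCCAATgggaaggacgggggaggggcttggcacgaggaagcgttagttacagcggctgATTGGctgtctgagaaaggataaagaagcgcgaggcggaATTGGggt
Sox2: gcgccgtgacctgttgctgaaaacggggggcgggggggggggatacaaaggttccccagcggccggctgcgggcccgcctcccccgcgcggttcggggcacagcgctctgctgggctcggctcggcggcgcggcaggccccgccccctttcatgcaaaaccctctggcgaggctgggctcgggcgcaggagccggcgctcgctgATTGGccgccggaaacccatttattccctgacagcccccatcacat
A CAGCTG stood at bases -210 to -205 of Sox11 and at -211 to -206 of Sox4, counted back from the start, and none in the Sox2 window. The windows of Kit, Cxcr4, Ezh2 and Rcor2, which also rose, held no CAGCTG either. Whether the element has a part in the changes was not tested. The bases just after the RefSeq start stood in a GENCODE transcript for Sox4 but not for Sox11 or Sox2. GENCODE starts Sox11 at 27342574 and Sox2 at 34650405, downstream of the windows, while the deposited bounds begin beside them. Positions for Sox11 and Sox2 therefore rest on the RefSeq start. Of all 32851 RefSeq promoter windows of that length, 13% hold CAGCTG, 16% hold TTTGAA and 33.8% hold CCAAT. These matches describe letters only, not binding.

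Sox11 (ENSMUSG00000063632, chromosome 12, 27340697 to 27342709) stood at 34.9, 34.9, 28.9 and 34.8 CPM in OMP_IGF1R 11, 12, 17 and 18, against 20, 15, 18.9 and 19 CPM in IGF1R_flfl 1, 2, 3 and 13. Means were 33.4 ± 3 CPM in OMP_IGF1R and 18.2 ± 2.22 CPM in IGF1R_flfl libraries (SD, n = 4 each). On the log2 scale the difference was 0.87 ± 0.102 (SE; edgeR adjusted p = 0.00336). The groups were well separated, and OMP_IGF1R 17 lay below the close values of the other 3 libraries of its group. Sox4 (ENSMUSG00000076431, chromosome 13, 28948919 to 28953713) stood at 59.4, 66, 54.5 and 63.4 CPM in OMP_IGF1R 11, 12, 17 and 18, against 55.1, 47.4, 45.4 and 45.6 CPM in IGF1R_flfl 1, 2, 3 and 13. The groups overlapped, since IGF1R_flfl 1 lay above OMP_IGF1R 17. Means were 60.8 ± 5.02 CPM in OMP_IGF1R and 48.4 ± 4.6 CPM in IGF1R_flfl libraries (SD, n = 4 each). The fold change in log2 was 0.33 ± 0.0801 (SE; edgeR adjusted p = 0.0357), and the call was lost without any 1 library but OMP_IGF1R 17 or IGF1R_flfl 1, with edgeR adjusted p = 0.0787, 0.11 and 0.11 without OMP_IGF1R 11, 12 and 18 and 0.0523, 0.0809 and 0.0824 without IGF1R_flfl 2, 3 and 13. Libraries scaled to sustentacular genes gave a log2 fold change of 0.31 for Sox4 (edgeR adjusted p = 0.265).

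Sox2 (ENSMUSG00000074637, chromosome 3, 34650005 to 34652461) stood at 95.6, 105, 102 and 110 CPM in OMP_IGF1R 11, 12, 17 and 18 and at 92.1, 88.3, 103 and 102 CPM in IGF1R_flfl 1, 2, 3 and 13. The groups overlapped, with means of 103 ± 6.13 CPM in OMP_IGF1R and 96.4 ± 7.36 CPM in IGF1R_flfl libraries (SD, n = 4 each). The difference of 0.10 ± 0.0684 in log2 did not pass the test (SE; edgeR adjusted p = 0.427). Sox2 lies within Sox2ot, a non-coding gene with 31 to 51 reads in OMP_IGF1R libraries and 35 to 222 in IGF1R_flfl libraries, and reads the genes share cannot be told apart. Of the 13 tested genes of the rest of the Sox family, 1 rose and 0 fell, against 2.83% and 5.37% of all tested genes. Their median log2 fold change was 0.09. Sox13 (0.24, edgeR adjusted p = 0.0407) was the one that rose, and Sox9, a regulator of gland cells, stood at 41.9 ± 2.71 CPM in OMP_IGF1R and 36.4 ± 2.90 CPM in IGF1R_flfl libraries (SD, n = 4 each; edgeR adjusted p = 0.127).

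Both chromatin regulators rose. Ezh2 (ENSMUSG00000029687, chromosome 6, 47530274 to 47595341), the catalytic subunit of Polycomb repressive complex 2 that methylates histone H3, stood at 28.2, 27.7, 26.2 and 30.5 CPM in OMP_IGF1R 11, 12, 17 and 18, against 18.6, 19.4, 18 and 19.8 CPM in IGF1R_flfl 1, 2, 3 and 13. Means were 28.1 ± 1.77 CPM in OMP_IGF1R and 18.9 ± 0.781 CPM in IGF1R_flfl libraries (SD, n = 4 each). On the log2 scale the difference was 0.57 ± 0.0652 (SE; edgeR adjusted p = 0.00326). The gap between the groups was wide against the spread within them, and Ezh2 had the smallest standard error of the 10 genes. Its promoter is shown for its repeated CCAAT letters, as CCAAT is a known element of many cell cycle promoters, at chr6:47595031-47595280, minus strand (GRCm38.p6).
Ezh2: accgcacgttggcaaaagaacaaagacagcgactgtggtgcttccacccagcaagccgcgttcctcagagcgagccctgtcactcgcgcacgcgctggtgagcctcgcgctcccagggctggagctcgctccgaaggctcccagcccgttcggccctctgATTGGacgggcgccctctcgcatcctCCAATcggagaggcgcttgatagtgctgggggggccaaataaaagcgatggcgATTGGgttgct
The capitals mark 3 CCAAT matches, at -90 to -86 and -11 to -7 on the opposite strand and at -64 to -60 on the gene's strand. Repeated CCAAT was not particular to Ezh2: Sox4 held more matches, and Sox11 and Sox2, which did not pass the test, held CCAAT too. The share of all windows with repeated CCAAT was not computed. Of the 7 genes here with a RefSeq window, 4 held CCAAT, 2 CAGCTG, 1 TTTGAA and 0 the E2F-type motif TTTNGCGC, which 1.13% of all windows hold.

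Of 11 tested genes of the other subunits of Polycomb repressive complex 2, 1 rose and 0 fell, against 2.83% that rose among all tested genes, with a median log2 fold change of 0.05. Jarid2, an accessory subunit that guides the complex to chromatin, rose to 105 ± 10.4 CPM in OMP_IGF1R libraries, against 73.9 ± 3.73 CPM in IGF1R_flfl libraries (SD, n = 4 each; edgeR adjusted p = 0.00734). Ezh1, the alternative catalytic subunit, stood at 82.3 ± 3.32 CPM in OMP_IGF1R and 80.9 ± 2.47 CPM in IGF1R_flfl libraries (SD, n = 4 each; log2 fold change 0.03, edgeR adjusted p = 0.797). Among those with the smallest p, Mtf2 (0.16), Phf1 (-0.24) and Phf19 (0.44) did not pass the test. Without overlap between the groups, Phf1 was lower and Phf19 higher in OMP_IGF1R libraries. Whether Ezh2 and Ezh1 differ in their response was not tested.

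Rcor2 (ENSMUSG00000024968, chromosome 19, 7267325 to 7275225), a scaffold of the CoREST repressor complex in stem and neural progenitor cells, stood at 14.7, 13.8, 12.3 and 15.8 CPM in OMP_IGF1R 11, 12, 17 and 18, against 8.58, 7.01, 8.25 and 7.99 CPM in IGF1R_flfl 1, 2, 3 and 13. Means were 14.1 ± 1.47 CPM in OMP_IGF1R and 7.96 ± 0.676 CPM in IGF1R_flfl libraries (SD, n = 4 each). The fold change in log2 was 0.83 ± 0.107 (SE; edgeR adjusted p = 0.00458). Every OMP_IGF1R library lay above every IGF1R_flfl library. Of 13 other CoREST genes tested, 3 rose and 0 fell (median log2 fold change 0.10), against 2.83% and 5.37% of all tested genes. The 3 were Rcor1 (0.39), the paralog of Rcor2, the histone deacetylase Hdac2 (0.33) and Gse1 (0.37), at edgeR adjusted p = 0.0109, 0.00941 and 0.0228. Kdm1a, the histone demethylase of the complex, stood at 105 ± 2.95 CPM in OMP_IGF1R and 90.1 ± 7.07 CPM in IGF1R_flfl libraries and did not pass the test (SD, n = 4 each; edgeR adjusted p = 0.0635).

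Mybl1 changed most and Cdkn1c by about as much as Ezh2. Mybl1 (ENSMUSG00000025912, chromosome 1, 9667415 to 9700209), or A-Myb, a transcription factor best known from meiotic male germ cells, stood at 21.6, 17.7, 14.9 and 21.7 CPM in OMP_IGF1R 11, 12, 17 and 18, against 8.22, 7.77, 7.10 and 10.8 CPM in IGF1R_flfl 1, 2, 3 and 13. Means were 19 ± 3.32 CPM in OMP_IGF1R and 8.46 ± 1.60 CPM in IGF1R_flfl libraries (SD, n = 4 each), a 2.24-fold ratio. On the log2 scale the difference was 1.17 ± 0.162 (SE; edgeR adjusted p = 0.0054). Even the lowest OMP_IGF1R library was above the highest IGF1R_flfl library. The other Myb genes and the DREAM complex, which represses cell cycle genes in resting cells, had 0 of 12 tested members called by edgeR, with a median log2 fold change of 0.07. Mybl2 (0.42), Lin9 (0.40) and Rbl1 (0.25) had positive values with no overlap between the groups (edgeR adjusted p = 0.125, 0.0984 and 0.155), and Lin52 stood at -0.14. At an unadjusted p under 0.05, 4 of the 12 were higher and 1 lower, and DESeq2 and voom called 0. The share of all tested genes at an unadjusted p under 0.05 was not computed. Such counts, here and for the lists below, therefore have no background to be read against.

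Cdkn1c (ENSMUSG00000037664, chromosome 7, 143458350 to 143461050), the imprinted inhibitor p57Kip2 that holds cells back from division, stood at 23.2, 20.7, 21 and 21.9 CPM in OMP_IGF1R 11, 12, 17 and 18, against 14.6, 12.4, 13.4 and 17.6 CPM in IGF1R_flfl 1, 2, 3 and 13. Means were 21.7 ± 1.14 CPM in OMP_IGF1R and 14.5 ± 2.25 CPM in IGF1R_flfl libraries (SD, n = 4 each). The fold change in log2 was 0.58 ± 0.107 (SE; edgeR adjusted p = 0.0134). The groups did not overlap, and IGF1R_flfl 13 came closest to the OMP_IGF1R libraries. Of 6 other inhibitors of cyclin-dependent kinases tested, 1 rose and 0 fell, against 2.83% and 5.37% of all tested genes. The one that rose was Cdkn1a (p21), at 66 ± 3.82 CPM in OMP_IGF1R and 54.9 ± 3.51 CPM in IGF1R_flfl libraries (SD, n = 4 each; log2 fold change 0.27, edgeR adjusted p = 0.0301). Cdkn1b (0.22), Cdkn2c (0.32) and Cdkn3 (0.79) did not pass. Of 10 tested genes of the imprinted region around Cdkn1c, or of the imprinted pair Igf2 and H19 farther along the chromosome, 0 were called by edgeR, and their median log2 fold change was -0.03. At an unadjusted p under 0.05, 2 were higher and 2 lower, and DESeq2 called 2 and voom 1, all lower. Kcnq1, whose locus holds the control region of Cdkn1c imprinting, stood at 12 ± 2.35 CPM in OMP_IGF1R and 18.5 ± 3.51 CPM in IGF1R_flfl libraries (SD, n = 4 each; edgeR adjusted p = 0.0563).

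**Figure D2:**
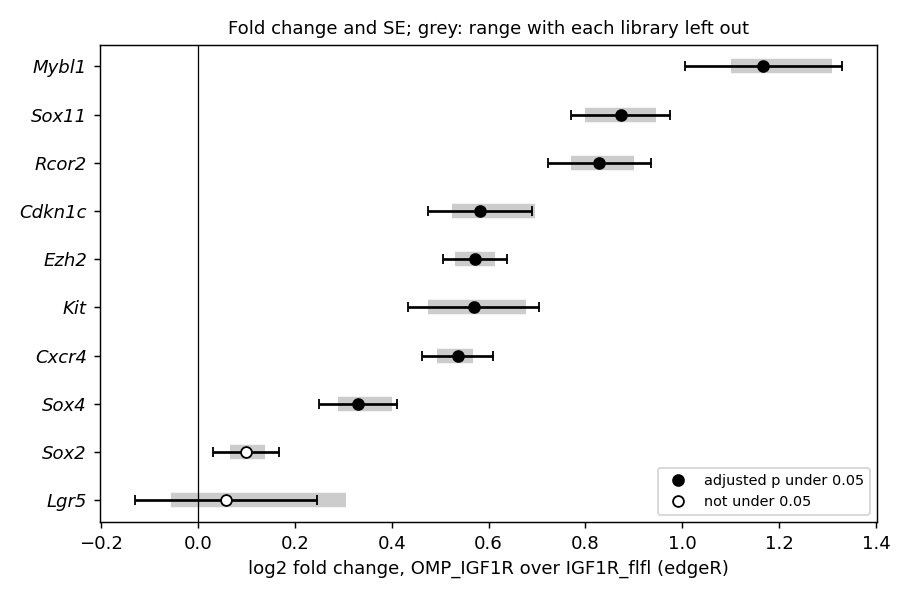
Log2 fold change of OMP_IGF1R over IGF1R_flfl libraries (x axis) for each of the 10 genes, with its edgeR standard error as the bar and, in grey, the range over the 8 fits that each left out a library. Filled points had an adjusted p under 0.05: Mybl1 stands highest at 1.17, and the grey bar crosses 0 for Lgr5 alone.

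Level per length gave an order among the genes that differed in its middle between the groups. Counts were divided by the GENCODE exon bases of all transcripts of a gene, pooled, within the deposited gene bounds. This is an approximation, since pooling can lower the values of genes with several transcripts and the authors' gene models may differ. For Sox11 the deposited bounds (27340697 to 27342709) leave out much of the GENCODE gene (27334264 to 27342574). Its place in the order therefore rests on 1.88 kb of exon. In OMP_IGF1R libraries the order in CPM per exon kb was Sox2 (50.1), Sox11 (17.8), Cxcr4 (15.7), Sox4 (12.7), Cdkn1c (10.7), Rcor2 (4.48), Ezh2 (4.30), Mybl1 (3.52), Kit (2.75) and Lgr5 (1.62). In IGF1R_flfl libraries the order in CPM per exon kb was Sox2 (46.8), Cxcr4 (10.8), Sox4 (10.1), Sox11 (9.70), Cdkn1c (7.14), Ezh2 (2.89), Rcor2 (2.52), Kit (1.85), Mybl1 (1.57) and Lgr5 (1.56). Sox2 stood far above the rest in both. Library ranges of neighbours in the order overlapped in OMP_IGF1R for Sox11 with Cxcr4, Sox4 with Cdkn1c, and the run Rcor2, Ezh2, Mybl1 and Kit. Within a library, each of these stood above the next in all 4 libraries, except Rcor2 above Ezh2 in 3. In IGF1R_flfl the ranges overlapped for the run Cxcr4, Sox4, Sox11 and Cdkn1c and for Kit, Mybl1 and Lgr5. Within a library, Sox11 stood above Cdkn1c and Kit above Mybl1 in all 4 IGF1R_flfl libraries, while Cxcr4 stood above Sox4 in 3, Sox4 above Sox11 in 2 and Mybl1 above Lgr5 in 2.

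Within each group some libraries tended to stand low or high across the genes. OMP_IGF1R 17, the library with muscle RNA, was the lowest of its group for 6 of the 10 genes and the highest for 0, and OMP_IGF1R 18 was the highest for 5. Relative to the mean of 8 libraries, the 8 genes averaged 0.40, 0.38, 0.16 and 0.42 on the log2 CPM scale in OMP_IGF1R 11, 12, 17 and 18 and -0.29, -0.44, -0.42 and -0.22 in IGF1R_flfl 1, 2, 3 and 13. Every OMP_IGF1R average was above 0 and every IGF1R_flfl average below it, and OMP_IGF1R 17 was the lowest of its group. These averages use genes chosen for their difference between the groups, so they only describe the libraries. IGF1R_flfl 2 and 3 were each the lowest of their group for 5 of the 10 genes.

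**Figure D3:**
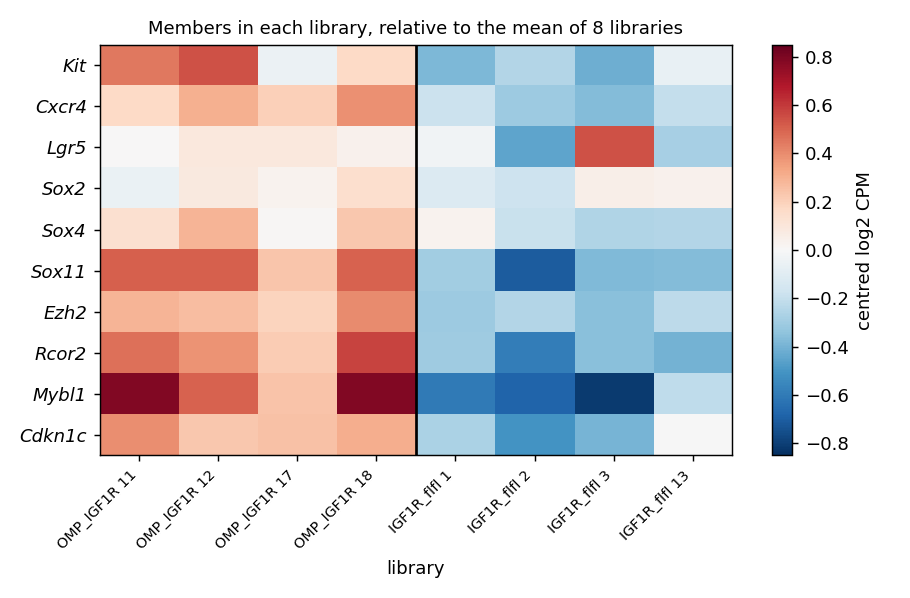
Log2 CPM of each of the 10 genes (rows) in each library (columns, OMP_IGF1R left of the line and IGF1R_flfl right), as the colour, centred on the gene's mean over the 8 libraries. OMP_IGF1R 17 is paler than the other 3 of its group for Sox11, Mybl1 and Rcor2, and the Lgr5 row is highest in IGF1R_flfl 3.

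Most called genes of the pathways around the 10 were neural precursor and proliferation genes. Of 134 tested genes in 11 lists, 31 rose and 0 fell, or 23.1% called against 8.2% of all tested genes. The lists were chosen with earlier results of these data known. Of the 31, 14 were among 16 proliferation genes (median log2 fold change 0.59) and 9 among 18 transcription factors of neural precursors (median 0.33). The number called was 20 without OMP_IGF1R 12 and 19 without OMP_IGF1R 18, and 14 with libraries scaled to sustentacular genes.

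The proneural and precursor factors that rose included Neurod1, at 21.9 ± 3.67 CPM in OMP_IGF1R and 10.7 ± 1.12 CPM in IGF1R_flfl libraries, and Insm1, at 78.8 ± 9.67 CPM in OMP_IGF1R and 37.2 ± 3.95 CPM in IGF1R_flfl libraries (SD, n = 4 each; edgeR adjusted p = 0.00402 and 0.00179). Nhlh1 and Nhlh2, markers of cells leaving the cycle, each rose by a log2 fold change of 1.10. Among the rest of the list, Pax6, Lhx2, Ebf1, Ebf2, Ebf3, Hes1, Hes5 and Id3 did not pass, with log2 fold changes of -0.19 (Ebf3) to 0.35 (Id3). Of the proliferation genes, Mki67 (0.88), Top2a (0.93), Cdk1 (0.94) and Ccnb1 (0.94) had the smallest p. The rises of Sox11 and Rcor2 (0.87 and 0.83) were of similar size, while those of Kit, Cxcr4, Ezh2 and Cdkn1c (0.54 to 0.58) were smaller in value, and differences between genes were not tested.

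Partners of the receptors included 2 called genes, both higher, among lists of 14, 8 and 14 tested genes, where 2.83% of all tested genes rose. Of 14 genes of Kit signalling, 1 rose and 0 fell (median log2 fold change 0.12): Pik3cd, a lipid kinase subunit, at 18.5 ± 1.03 CPM in OMP_IGF1R and 13.5 ± 1.07 CPM in IGF1R_flfl libraries (SD, n = 4 each; edgeR adjusted p = 0.0131). Kitl, the ligand of Kit, stood at 78.1 ± 6.59 CPM in OMP_IGF1R and 61.3 ± 9.73 CPM in IGF1R_flfl libraries, without overlap but short of the threshold (SD, n = 4 each; edgeR adjusted p = 0.0921), and Gab2 (0.13) and Socs1 (0.51) did not pass either. Of 8 partners of Cxcr4, 1 rose and 0 fell (median 0.09): Grk6, a receptor kinase (0.39, edgeR adjusted p = 0.0109). Cxcr7, the scavenger receptor for Cxcl12, stood at -0.20, Cd74 at 0.45 and Gnai2 at 0.13 on the log2 fold scale, and Cxcl12 itself at 0.27 (edgeR adjusted p = 0.415). Of 14 tested partners of Lgr5 and targets of Wnt signalling, 0 were called by edgeR (median 0.21), with Lef1 at 0.46, Tcf7l2 at 0.23, Nkd1 at 0.36 and the low-count Ascl2 at 0.91. In that list 6 were higher at an unadjusted p under 0.05, a level with no share over all genes computed, and DESeq2 called 1 and voom 0.

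**Figure D4:**
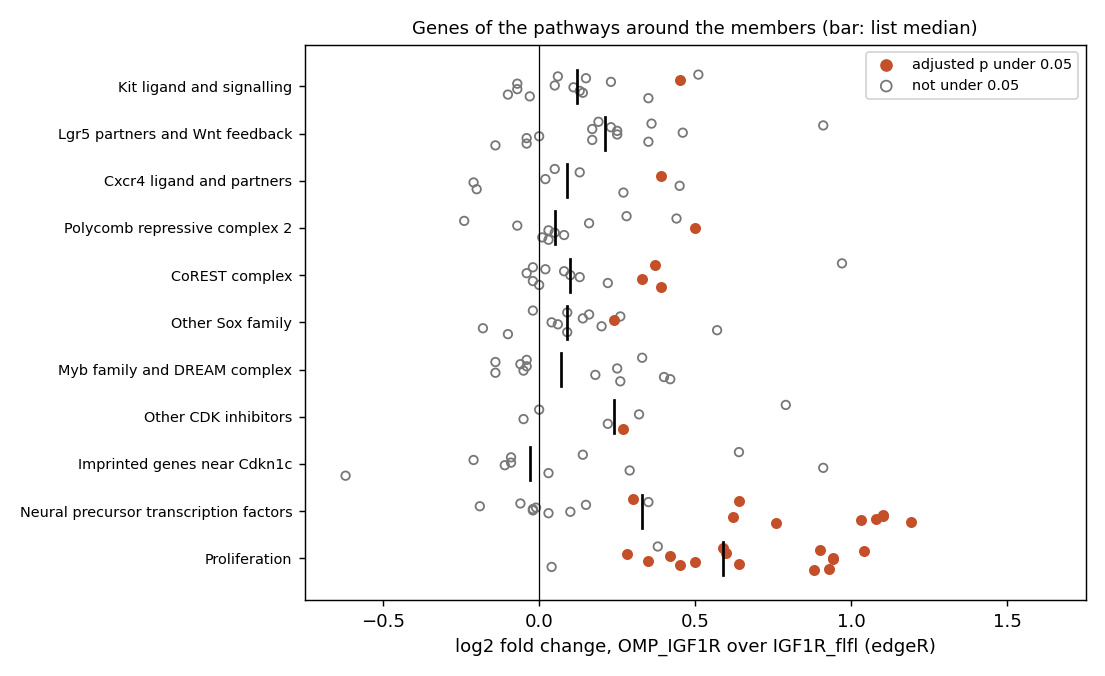
Log2 fold change of OMP_IGF1R over IGF1R_flfl libraries (x axis) for each tested gene of the 11 pathway lists (rows), with filled points for an edgeR adjusted p under 0.05 and a vertical bar at each list's median. Called genes lie right of 0 and gather in the neural precursor and proliferation rows.

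For each of the 8 genes that rose, the 3 genes with the most similar profile were found among 13478 others of at least 2 logCPM, by the root mean square difference of centred log2 CPM over the 8 libraries, which share depth and tissue composition. Sox11 was closest to Rprm (0.061), Top2a (0.066) and Stk32a (0.071). Rcor2 was closest to Stk32a (0.072), Tpx2 (0.075) and Cdyl2 (0.080), so that Stk32a stood near both. Mybl1 was closest to Ccnb1 (0.171), Aspm (0.179) and Gm14226 (0.182). The distance grows with how much a gene varies over the libraries, so distances are not compared between the 8 genes. The 8 genes were chosen for their difference between the groups, so the genes nearest to them are bound to share much of it.

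Ezh2 was closest to 2610039C10Rik (0.072), Arhgap11a (0.081) and Trim62 (0.082). Cxcr4 was closest to Tmsb10 (0.055), Ablim1 (0.066) and Dock5 (0.071), and Cdkn1c to Mycl1 (0.066), Limd2 (0.078) and Kif26a (0.093). Kit was closest to Lcp2 (0.078), Pamr1 (0.114) and Fut1 (0.117), and Sox4 to Etl4 (0.052), Map4k4 (0.058) and Mcm6 (0.058).

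Several cell type lists also differed between the groups, some higher and some lower, and their part in the result was not tested. Among all tested genes 5.37% fell and 2.83% rose, and 10.3% were lower and 6.57% higher without overlap between the groups. Mature neuron markers were lower: 11 of 12 fell and 0 rose, and their summed level was 7985 to 9676 CPM in OMP_IGF1R and 14210 to 19961 CPM in IGF1R_flfl libraries. Immature neuron markers summed to 2269 to 2430 CPM in OMP_IGF1R and 1904 to 2080 CPM in IGF1R_flfl libraries (5 of 12 rose, 0 fell). Markers of horizontal basal cells summed to 515 to 733 CPM in OMP_IGF1R and 402 to 477 CPM in IGF1R_flfl libraries (4 of 12 rose, 0 fell), and those of Trpm5 microvillar cells to 90.7 to 116 CPM in OMP_IGF1R and 57.9 to 69.6 CPM in IGF1R_flfl libraries (4 of 11 rose, 0 fell). None of these sums overlapped between the groups. Sums of sustentacular markers, from cells that also express Sox2, overlapped: they summed to 27548 to 28987 CPM in OMP_IGF1R and 24674 to 30980 CPM in IGF1R_flfl libraries, with 0 of 15 higher and 1 lower.

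Cells outside the neuronal lineage that are known for Kit or Cxcr4 had marker levels that mostly overlapped between the groups. Of the mast cell markers, Tpsab1 was at 0 in all 8 libraries, Ms4a2 had at most 1 read, Cpa3 had 4 to 8 reads in OMP_IGF1R and 0 to 13 in IGF1R_flfl libraries, and the list's sum overlapped (92.5 to 107 CPM in OMP_IGF1R, 95.1 to 109 CPM in IGF1R_flfl), most of it from Hdc and Gata2. The melanocyte markers Dct and Tyr had at most 4 reads in a library, and that list's sum overlapped too (31.8 to 41.1 CPM in OMP_IGF1R, 30.6 to 36.7 CPM in IGF1R_flfl). Mitf, a transcription factor of melanocytes and mast cells in that list, rose to 12.2 CPM in OMP_IGF1R, against 8.58 CPM in IGF1R_flfl libraries (log2 fold change 0.51, edgeR adjusted p = 0.0424), as 1 of 3 melanocyte markers tested, and its part in the rise of Kit was not tested. For Cxcr4, sums of B and plasma cell markers (52.5 to 93.4 CPM in OMP_IGF1R, 22.6 to 74.6 CPM in IGF1R_flfl), of macrophage markers (192 to 215 CPM in OMP_IGF1R, 143 to 201 CPM in IGF1R_flfl) and of endothelial markers (192 to 212 CPM in OMP_IGF1R, 131 to 213 CPM in IGF1R_flfl) overlapped. Of 9 B and plasma cell markers tested, all 9 had positive log2 fold changes (median 0.57) and 1 rose, Cd79b (0.90, edgeR adjusted p = 0.0351), while Igj, which gave most of the sum, stood at 0.40 (edgeR adjusted p = 0.526). T cell markers did not overlap, by a narrow margin, at 10.5 to 13.3 CPM in OMP_IGF1R and 4.12 to 10.5 CPM in IGF1R_flfl libraries, with 0 of 9 called by edgeR, 1 higher at an unadjusted p under 0.05, and 0 called by DESeq2 and 1 by voom. All 9 T cell markers had positive log2 fold changes (median 0.63), as had all 11 macrophage markers (median 0.18) and 10 of 12 endothelial markers (median 0.15). Of the macrophage and endothelial markers edgeR called 0, with 2 and 1 higher at an unadjusted p under 0.05. No share over all genes was computed at that unadjusted level. The part of these cells in the rise of Cxcr4 was not tested.

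The other lists overlapped between the groups in their summed levels, although some held called genes. The sums were 20055 to 34924 CPM in OMP_IGF1R and 16427 to 37920 CPM in IGF1R_flfl libraries for Bowman glands, 585 to 808 CPM in OMP_IGF1R and 495 to 628 CPM in IGF1R_flfl libraries for ionocyte-like microvillar cells, and 1884 to 1980 CPM in OMP_IGF1R and 1729 to 2703 CPM in IGF1R_flfl libraries for ensheathing glia. Of 9 ionocyte-like markers tested, 8 had positive log2 fold changes (median 0.33). None of these 9 was called by edgeR or voom, and DESeq2 called 1 as higher. Neutrophil markers summed to 237 to 575 CPM in OMP_IGF1R and 110 to 891 CPM in IGF1R_flfl libraries, most of it from Ltf, which is also in the Bowman gland list. Respiratory ciliated cell markers summed to 653 to 776 CPM in OMP_IGF1R and 716 to 998 CPM in IGF1R_flfl libraries. Of 10 ciliated cell markers 2 fell, Ccdc39 (-0.38) and Tekt1 (-0.52), and 0 had a positive log2 fold change. The ensheathing glia gene Serpine2 fell (-0.66), and of the neutrophil markers Lcn2 rose (1.19) and Mpo fell (-2.10). The muscle and bulb lists stood apart in the single libraries named above, and in the bulb and oligodendrocyte list Olig1 (0.50) and Olig2 (0.60) rose and Eomes (-0.49) fell. These genes were named to identify the calls, after their values were seen.

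**Figure D5:**
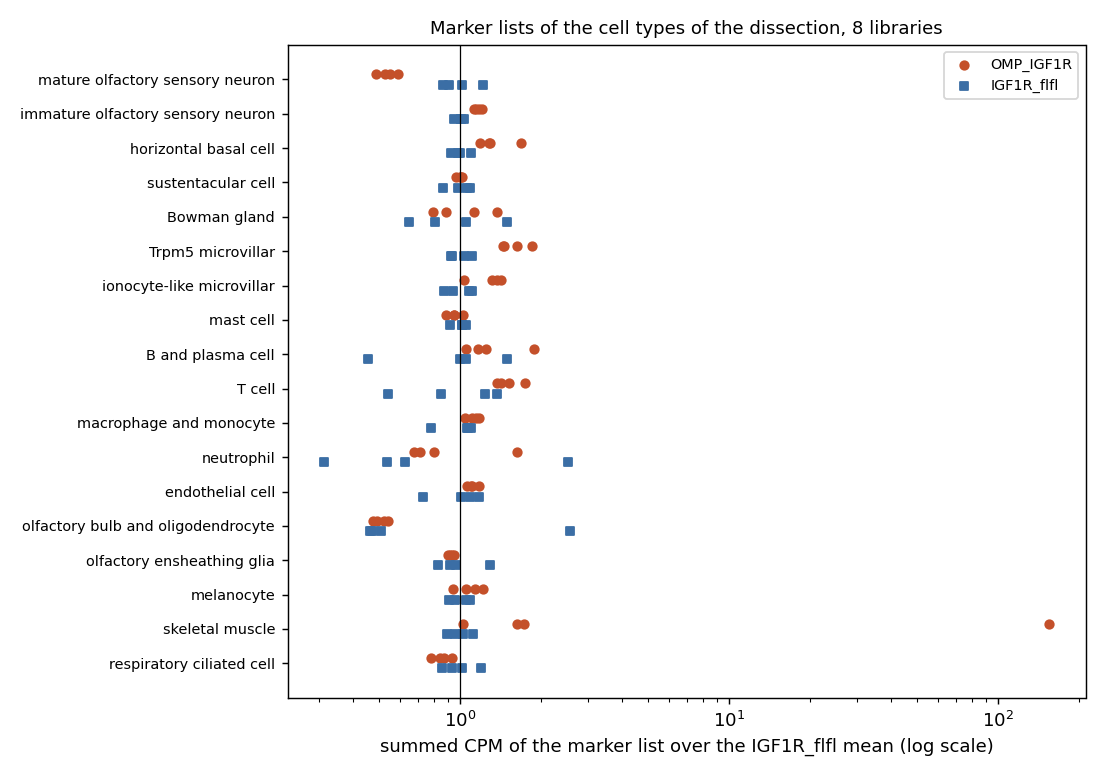
Summed CPM of each marker list (rows) in each library, divided by the mean of the IGF1R_flfl libraries and plotted on a log axis, with circles for OMP_IGF1R and squares for IGF1R_flfl libraries. Mature neuron markers lie lower and immature neuron, horizontal basal and Trpm5 microvillar markers higher in all 4 OMP_IGF1R libraries, and the muscle point of OMP_IGF1R 17 stands far to the right.

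In the authors' deposited table, whose header does not state the direction of its fold changes, the same 8 genes had an adjusted p under 0.05, each with a positive log2 fold change. In the authors' deposited table these ran from 0.32 for Sox4 to 0.95 for Mybl1, and Lgr5 (0.05, adjusted p = 0.899) and Sox2 (0.10, adjusted p = 0.428) did not pass.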

How the data were processed

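RNA of dissected olfactory epithelium was sequenced after stranded, poly(A)-selecting library preparation, per the labels' protocols. The deposited table holds 1 column per library, headed as a mean and paired with one headed as a standard deviation, per the file headers. The standard deviations are 0 throughout. The deposited values are whole numbers with unequal totals and were read as counts per gene, not normalized, although the header does not call them counts. The submitters' processing notes name TopHat2 2.0.14, Trim Galore 0.3.7, SAMtools 1.2, DESeq2 without a version, and build GRCm38 (mm10). How reads were counted, and with which strand setting, is not given in the sources used here, so overlapping genes may share them. A second deposited table, of the authors' comparison, gives log2 fold changes and adjusted p-values, per the file headers, used for description only. The 8 columns of standard deviations were not used.

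Samples were grouped by title, since the genotype field gives the opposite names. The title numbers run from 35156 to 35159 for OMP_IGF1R and from 35138 to 35141 for IGF1R_flfl, so anything that follows them cannot be told apart from the group. Replicates differed beyond sampling noise (mean chi-square per gene of 11.9 to 109 within groups), so none was a copy.

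Counts were tested with edgeR 4.0.16 in R 4.3.3 (quasi-likelihood F-test, TMM, filterByExpr), adjusted by Benjamini-Hochberg over all 17381 genes tested, at a threshold of 0.05. The standard error of a fold change is its size over the square root of F. Of 353 list entries, 341 were matched by symbol and 9 by Ensembl ID. The members, lists and alternatives were chosen with earlier results of these data known. Named genes were the 10 members, up to 4 genes per pathway list with the smallest p, up to 3 of the highest per cell type list, and the 3 nearest profiles per called member. Others are said to be chosen after their values were seen, or are named to identify a count, a marker at 0 or a direct partner. Promoters came from RefSeq (GRCm38.p6), with 7 of the 10 members matched. The fits were tested on simulated data. Alternatives were DESeq2 1.42.0, limma 3.58.1 voom with sample weights, other scalings and filters, and libraries left out.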

Additional observations from a re-analysis of the deposited data

Results flagged for a closer look

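In 56 groups of 4 libraries (the 10 genes and the sums of 18 cell type lists, in each group), 6 values lay far from the other 3 of their group by Dixon's test, which chance flags in about 1 in 20 groups. Among them 1 was a progenitor gene: Sox11 was at 28.9 CPM in OMP_IGF1R 17, against 34.8 to 34.9 CPM in the other OMP_IGF1R libraries, and without that library its log2 fold change was 0.95. The same library had 623 CPM of skeletal muscle markers, against 4.11 to 6.94 CPM, and 575 CPM of neutrophil markers, against 237 to 283 CPM. IGF1R_flfl 13 had 891 CPM of neutrophil markers, against 110 to 221 CPM for IGF1R_flfl 1, 2 and 3. IGF1R_flfl 3, in which Lgr5 was highest, had 143 CPM of macrophage markers, against 194 to 201 CPM. IGF1R_flfl 2, in which Sox11, Cdkn1c and Rcor2 were lowest, had 2354 CPM of olfactory bulb and oligodendrocyte markers, against 424 to 468 CPM. The part of these values in the results was not tested.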

How the results depend on the processing

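No paired analysis was possible because the groups share no replicate number. Over 17 alternative fits, Cxcr4, Ezh2, Sox11, Mybl1, Cdkn1c and Rcor2 kept their direction and their call. Scaled to sustentacular genes, the log2 fold changes of Kit and Sox4 were 0.567 (edgeR adjusted p = 0.0591) and 0.314 (edgeR adjusted p = 0.265) and lost their calls, 582 genes were called over all genes and 14 in the pathway lists. Fewer genes were called under it throughout, and the cause was not tested. With 1 library left out at a time, fold changes ran from 0.476 to 0.677 for Kit, 0.289 to 0.400 for Sox4, -0.0549 to 0.305 for Lgr5 and 0.0656 to 0.139 for Sox2. They ran from 1.10 to 1.31 for Mybl1. Calls over all genes then ran from 569 to 1477, those in the pathway lists from 19 to 29, and those among the 10 genes from 6 to 8. Lgr5 was -0.0651 without IGF1R_flfl 2 and OMP_IGF1R 17 together. DESeq2 called 2126 genes and voom 1850, with 8 of the 10 genes in each. All 10 genes rest on at least 176 reads per library, and the spread between 4 libraries a group enters each test.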
